A study of Mus musculus with 14 samples.

Results

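The TNF and NF-kB pathway was followed through 10 genes in microglia of the dorsal lumbar spinal cord: the ligand Tnf, its receptors Tnfrsf1a and Tnfrsf1b, the adaptor Traf1, the NF-kB subunits Nfkb1, Nfkb2 and Rel, and the inhibitors Nfkbia, Nfkbiz and Tnfaip3. They were chosen by symbol from the 14329 genes with normalized counts, and all 10 were present. Of these, 9 reached 10 reads in 7 or more of the 14 libraries and were tested together with 12645 genes in all, whereas Traf1 did not pass this filter.

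Each library was made from 2000 CD45low CD11b+ CX3CR1+ cells sorted from C57BL/6 wild-type (WT) or heterozygous TASTPM mice at 6 months of age. TASTPM mice carry transgenes that include human APP with the Swedish mutation, driven by the murine Thy-1 promoter, which is active in neurons. Mice were given K/BxN serum, which transfers an antibody-driven arthritis, or control serum on days 0 and 2, and cells were collected on day 5. There were 4 libraries of WT K/BxN ST, 3 of WT Control ST, 4 of TASTPM K/BxN ST and 3 of TASTPM Control ST, where ST stands for serum transfer. The study used male and female mice and the sex of each sample was not given. The number of libraries in each group fits the number of mice given in the study's methods, so each library was taken as an individual mouse. This is uncertain for WT Control ST replicate 3 and TASTPM Control ST replicate 3, which held both Xist and Ddx3y.

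TNF is a trimeric cytokine made by activated microglia and macrophages. It binds TNFR1, the receptor present on most cells, and TNFR2, which is more restricted and well expressed by microglia. The receptors recruit adaptors and ubiquitin ligases that activate the IKK complex, IKK marks IκBα for degradation, and freed NF-kB dimers enter the nucleus. Among the genes that NF-kB switches on are its own inhibitors, which makes IκBα and A20 mRNA common readouts of the pathway in tissue, and spinal TNF has long been studied in the sensitization of pain pathways. Activation of NF-kB is a change of protein location and is not seen by RNA-seq.

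To show why inhibitors and subunits are treated here as targets as well as parts of the pathway, the 250 bases before each RefSeq transcription start were searched for the kappa-B consensus, a motif of 10 bases, on both strands. The consensus stood in 7.25% of the 32851 promoters of that length. RefSeq promoters were found for 8 of the 10 genes, 11 sequences in all, and matched GRCm39 exactly. Of these, 6 promoters of 4 genes, Nfkbia, Nfkb2, Rel and Tnfaip3, held a match. The promoter of Nfkbia lies on chromosome 12 at chr12:55539433-55539682, minus strand, and its match, in capitals, starts 29 bases before the transcription start. The promoter of Tnf, at chr17:35420984-35421233 on the minus strand, held none and is printed without capitals. Both are written 5′ to 3′ as the RefSeq sequence of build GRCm38.p6, with GRCm39 positions. Sites farther upstream or of another sequence were not searched. A gene whose promoter held no match, such as Tnf or Traf1, can thus still be an NF-kB target.

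Nfkbia: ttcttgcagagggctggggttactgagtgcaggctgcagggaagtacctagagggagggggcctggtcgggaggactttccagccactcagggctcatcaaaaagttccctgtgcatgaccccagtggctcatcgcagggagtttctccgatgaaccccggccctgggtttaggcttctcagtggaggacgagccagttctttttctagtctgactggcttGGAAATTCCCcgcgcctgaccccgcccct

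Tnf: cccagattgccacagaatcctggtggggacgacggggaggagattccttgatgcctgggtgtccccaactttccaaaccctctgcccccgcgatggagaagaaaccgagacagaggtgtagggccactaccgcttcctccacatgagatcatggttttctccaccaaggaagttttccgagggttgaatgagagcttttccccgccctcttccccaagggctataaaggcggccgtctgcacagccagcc

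The matches of the other 3 genes are shown in windows of at most 30 bases, 1 window for each gene. Tnfaip3 had 1 further match and Nfkb2 had 3 further matches that are not printed. In the windows of Rel and Nfkb2, overlapping matches run together into 11 capitals. The Rel window lies at chr11:23721042-23721071 on the minus strand, the Nfkb2 window at chr19:46293127-46293156 on the plus strand and the Tnfaip3 window at chr10:18891159-18891180 on the minus strand.
Rel: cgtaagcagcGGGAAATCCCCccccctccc
Nfkb2: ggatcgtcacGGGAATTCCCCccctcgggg
Tnfaip3: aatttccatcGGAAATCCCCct
A match is a resemblance of letters and was not measured as a binding site.

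The libraries held 14223015 to 20239175 reads on genes. Normalized counts are reads divided by 1 factor for the library, and 1 read was worth 0.838 to 1.19 normalized counts. All 12 of 12 microglia markers were present and their summed normalized count was 350673 to 1379170, so every library held microglial RNA. This does not show that all cells were microglia. In 4 libraries, WT K/BxN ST replicates 1 and 2 and TASTPM K/BxN ST replicates 1 and 2, monocyte transcripts were also present. Their Ly6c2 normalized count was 12898 to 29133 against at most 17.8 in the other 10, and the 9 monocyte markers summed to 77702 to 149500 against 188 to 442. These 4 libraries also had lower microglia marker sums, 350673 to 845362 against 1004010 to 1379170, and are called the Ly6c2-high libraries below. The gate described by the study was also negative for Ly6C and CCR2, which would remove Ly6C+ CCR2+ monocytes, whereas the labels of the sorted samples name only CD45, CD11b and CX3CR1. The 4 libraries also stood apart in dendritic cell markers, which summed to 768 to 7673 against 0.838 to 224, and in border macrophage markers, at 1226 to 3343 against 0 to 947. The immediate early gene Fos was at 354 to 1697 in them against 0 to 161 in the other 10. The 10 neutrophil markers summed to 10337 to 218835 in them and to 4060 to 11934 in the other 10. The 4 had Ddx3y and little Xist, as male cells do, and the balance of Xist and Ddx3y differed among the groups. Both transcripts were present in WT Control ST replicate 3 (Xist 1706, Ddx3y 236) and in TASTPM Control ST replicate 3 (Xist 202, Ddx3y 1481). Whether these libraries hold RNA of more than 1 mouse was not tested. Fewer cells of a type and less RNA per cell cannot be told apart in sorted bulk samples, and the part of these other cells, of Fos and its relatives and of sex in the results was not tested beyond the values given beside them.

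Per exon length, the pathway in these microglia was dominated by an inhibitor and the receptors. Nfkbia, which encodes IκBα, had 2811 ± 818 normalized counts per kb of exon (SD over the 14 libraries), Tnfrsf1b 2385 ± 532 and Tnfrsf1a 2129 ± 327. These neighbours in the order did not differ beyond their spread. By group means the order of the first pair depended on genotype: Tnfrsf1b stood above Nfkbia in WT, at 2631 against 2127 in Control ST and 2708 against 2314 in K/BxN ST, and below it in TASTPM, at 2085 against 3320 and 2101 against 3439. This order was not tested. The subunits were far lower, with Nfkb1 at 184 ± 36.1, Rel at 124 ± 35.04 and Nfkb2 at 75.9 ± 39.9 normalized counts per kb. Tnfaip3, encoding A20, stood between them at 86.6 ± 37.9. At the bottom were Tnf at 39.8 ± 30.4, Nfkbiz at 29.8 ± 11.3 and Traf1 at 2.49 ± 6.09. From Rel down to Nfkbiz, each neighbour differed from the next by less than the larger SD. The lowest value among Nfkbia and the receptors, 1276 for Nfkbia, lay above the highest among the others, 240 for Nfkb1.

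**Figure D1:**
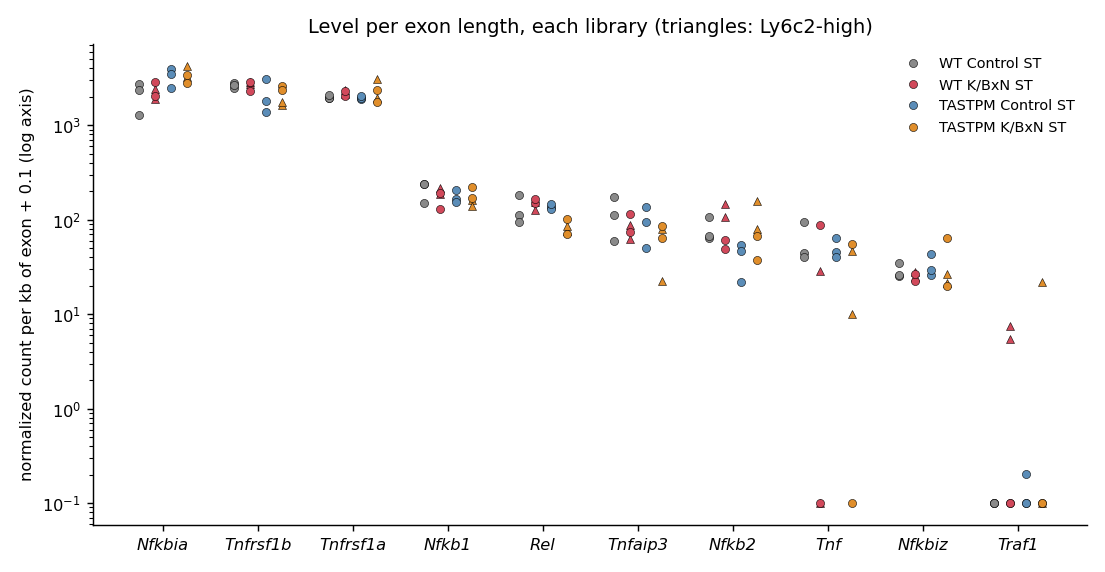
Normalized count per kb of exon, plus 0.1 on a log axis, of the 10 genes in each of the 14 libraries, coloured by group, with triangles for the Ly6c2-high libraries. Nfkbia and both receptors lie at or above 1276, and every other gene lies at or below 240.

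Tnf, on chromosome 17 at chr17:35418357-35420983, minus strand, encodes the ligand. Its normalized count was 73.1, 66.2 and 154 in WT Control ST, against 47.0, 0, 146 and 0 in WT K/BxN ST. The TASTPM libraries held 75.2, 66.6 and 103.6 in Control ST and 75.9, 16.2, 90.5 and 0 in K/BxN ST. Tnf was thus detected in all 6 Control ST libraries, at 66.2 or more, and had no read in 3 of the 8 K/BxN ST libraries, where 0 reads allows at most 2.66, 3.27 and 3.38 normalized counts for counting error alone. The highest K/BxN ST libraries lay within the range of Control ST in both genotypes, so the groups overlapped. On the log2(normalized count + 1) scale the difference of K/BxN ST from Control ST was -3.32 (SE 1.78) in WT, with an adjusted p of 0.715, and -2.13 (SE 1.78) in TASTPM, with an adjusted p of 0.964 (limma, two-sided, Benjamini-Hochberg over 12645 genes). Neither passed. These values depend on how 0 is handled: on the recovered reads, edgeR gave -1.02 in WT and -0.85 in TASTPM. They also depend on single libraries, since without TASTPM K/BxN ST replicate 4, which had no read, the limma value in TASTPM was -0.72.

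Of the receptors, Tnfrsf1a at chr6:125325566-125339632 on the plus strand encodes TNFR1, the death domain receptor. It stood at 6057, 6116 and 6637 in WT Control ST, against 7391, 6735, 6426 and 7309 in WT K/BxN ST. The TASTPM libraries held 5916, 6057 and 6422 in Control ST and 9682, 6167, 7406 and 5539 in K/BxN ST. The one high value belonged to a Ly6c2-high library, and the groups overlapped in both genotypes. The log2 difference was 0.15 (SE 0.18) in WT and 0.20 (SE 0.18) in TASTPM, with 95% intervals of -0.24 to 0.54 and -0.19 to 0.59.

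Tnfrsf1b, at chr4:144938938-144973477 on the minus strand, encodes TNFR2, which lacks a death domain. Its normalized count was 13729.8, 12162 and 13177 in WT Control ST, against 13467, 14378, 11475 and 14300.2 in WT K/BxN ST. Its TASTPM values were 8961, 6808 and 15194 in Control ST and 8162, 8738, 12960.4 and 11741 in K/BxN ST. The 7 WT libraries were close together, from 11475 to 14378, whereas the TASTPM libraries ran from 6808 to 15194. Serum moved it by 0.04 (SE 0.25) in WT and by 0.07 (SE 0.25) in TASTPM on the log2 scale, with 95% intervals of -0.49 to 0.57 and -0.46 to 0.60. A doubling of either receptor transcript lay outside these intervals.

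Traf1, at chr2:34831762-34851837 on the minus strand, encodes an adaptor that binds TNFR2 with TRAF2 and is itself a textbook NF-kB target. It had no read in the 3 libraries of WT Control ST and stood at 65.0, 47.8, 0 and 0 in WT K/BxN ST. In TASTPM it was 0, 0 and 0.909 in Control ST, where the last value is 1 read, and 195, 0, 0 and 0 in K/BxN ST. Traf1 was therefore present in 3 of the 4 Ly6c2-high libraries and in none of the other 4 K/BxN ST libraries. Against a floor of 3 reads in each WT Control ST library, the mean of WT K/BxN ST was at least 10.3-fold higher, and this rested on replicates 1 and 2. With no filter on low values, the log2 difference was 2.91 (SE 1.97, adjusted p = 0.740) in WT and 1.59 (SE 1.97, adjusted p = 0.953) in TASTPM by limma.

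The subunits differed in pattern. Nfkb1, at chr3:135290264-135397742 on the minus strand, encodes p105, the precursor of p50. It was 1938, 3038 and 3082 in WT Control ST, against 2394, 2811, 2448 and 1687 in WT K/BxN ST. In TASTPM it was 2129, 1987 and 2634 in Control ST and 2053, 1782, 2848 and 2180 in K/BxN ST. All 4 groups overlapped, and the log2 difference with serum was -0.19 (SE 0.24) in WT and -0.03 (SE 0.24) in TASTPM.

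Nfkb2, at chr19:46292759-46303812 on the plus strand, encodes p100, the precursor of p52 of the non-canonical pathway. Its normalized count was 846, 504 and 532 in WT Control ST, against 1163, 838, 385 and 478 in WT K/BxN ST. Its TASTPM values were 423, 171 and 367 in Control ST and 1243, 625, 532 and 294 in K/BxN ST. The Ly6c2-high libraries held 625 to 1243, above the other 4 K/BxN ST libraries, which held 294 to 532. The log2 difference with serum was 0.09 (SE 0.49) in WT and 0.98 (SE 0.49, adjusted p = 0.964, limma) in TASTPM. Without the Ly6c2-high libraries these became -0.51 in WT and 0.41 in TASTPM, and the TASTPM value was 0.58 without Control ST replicate 2. In WT that omission leaves K/BxN ST replicates 3 and 4, with Xist at 5816 and 3247 and no Ddx3y. WT Control ST replicates 1 and 2 had Ddx3y at 653 and 1027 and Xist at 2.81 and 45.3. Serum and sex can thus hardly be told apart in WT under that setting. Of the exon bases of Nfkb2, 38.1% are shared with genes on the opposite strand, 4833438C02Rik and Psd. The strand setting used in counting and the handling of reads in shared exons are not given in the sources used here. The Nfkb2 count may thus include reads of these genes or lack reads from the shared bases. Its value per kb was taken over all its exon bases.

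**Figure D2:**
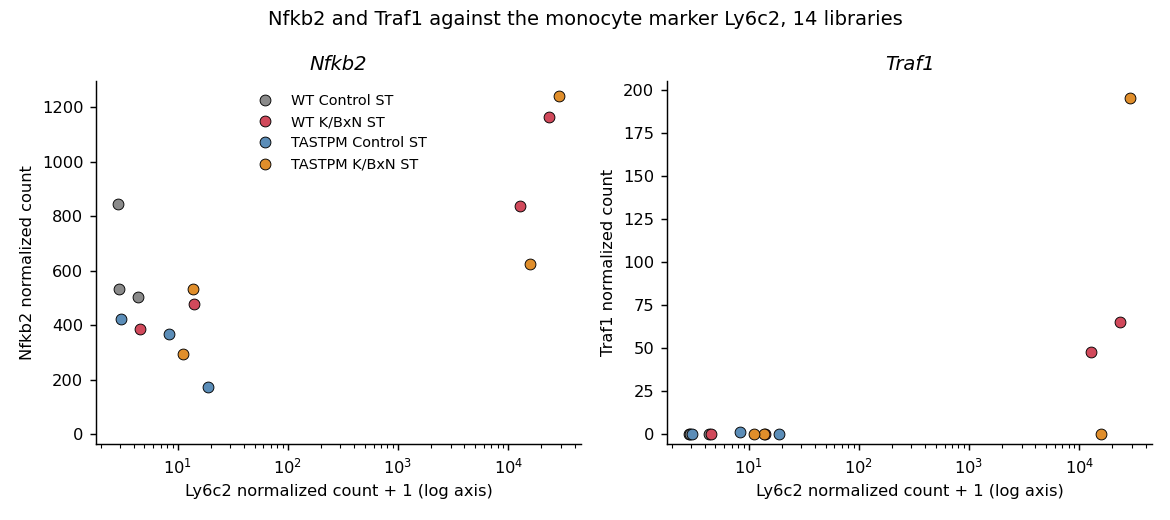
Nfkb2 (left) and Traf1 (right) normalized counts against Ly6c2 normalized count + 1 on a log axis, 1 point per library, coloured by group. The 4 libraries at the right, with Ly6c2 of 12898 or more, hold 625 to 1243 for Nfkb2 and all but 1 read of Traf1.

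Rel, at chr11:23686847-23721264 on the minus strand, encodes c-Rel, a subunit with an activation domain that is prominent in immune cells. Its mean was lowest in TASTPM K/BxN ST. Its normalized count was 1057, 998 and 1141 in TASTPM Control ST and 583, 666, 551 and 796 in TASTPM K/BxN ST, so every K/BxN ST library lay below every Control ST library. In WT it was 867, 1432 and 728 in Control ST and 980.0, 1209, 1167 and 1283 in K/BxN ST, where the groups overlapped. The means were 1065 ± 71.9 (SD, n = 3) and 649 ± 109 (SD, n = 4) in TASTPM, and 1009 ± 373 (n = 3) and 1160 ± 129 (n = 4) in WT. With serum the log2 difference was -0.73 (SE 0.24, 95% interval -1.24 to -0.21) in TASTPM, with an unadjusted p of 0.00929 and an adjusted p of 0.964 (limma), and 0.26 (SE 0.24, adjusted p = 0.810) in WT. The adjusted p did not pass in either genotype. The value in TASTPM was -0.68 without the Ly6c2-high libraries, where both remaining K/BxN ST libraries, 551 and 796, still lay below the 3 Control ST libraries, and -0.67 with Xist and Ddx3y as a covariate.

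Among the inhibitors, Nfkbia, at chr12:55535332-55539432 on the minus strand, encodes IκBα, which holds NF-kB in the cytoplasm and is resynthesized when NF-kB is active. It stood at 5344, 4542 and 2472 in WT Control ST, against 4643, 3721, 5563 and 3999 in WT K/BxN ST. In TASTPM it was 4854, 7668 and 6769 in Control ST and 8255, 6341, 6662 and 5389 in K/BxN ST. Within a genotype the sera overlapped, and the log2 difference with serum was 0.18 (SE 0.26) in WT and 0.06 (SE 0.26) in TASTPM. The 95% intervals, -0.38 to 0.74 and -0.50 to 0.62, did not reach a doubling.

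Nfkbiz, at chr16:55631738-55659262 on the minus strand, encodes IκBζ, a nuclear IκB protein needed for secondary response genes such as Il6. It was 197, 142 and 145 in WT Control ST, against 157, 139, 125 and 150.5 in WT K/BxN ST. The values of TASTPM were 145, 164 and 241 in Control ST and 149, 119, 356 and 111 in K/BxN ST. Replicate 3 of TASTPM K/BxN ST stood apart from its group and was not a Ly6c2-high library. The log2 difference with serum was -0.16 (SE 0.45) in WT and -0.14 (SE 0.45) in TASTPM.

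Tnfaip3, at chr10:18874201-18891405 on the minus strand, encodes A20, the ubiquitin-editing enzyme that terminates TNF signalling. Its normalized count was 1670.2, 1077 and 574 in WT Control ST, against 602, 848, 1112 and 727 in WT K/BxN ST. The values of TASTPM were 912, 490 and 1317 in Control ST and 215, 777, 838 and 618 in K/BxN ST. In WT the Control ST libraries, from 574 to 1670.2, reached beyond both ends of the K/BxN ST range of 602 to 1112. The log2 difference was -0.33 (SE 0.48) in WT and -0.63 (SE 0.48, adjusted p = 0.964, limma) in TASTPM. The latter was -0.18 without K/BxN ST replicate 1, a Ly6c2-high library, and -1.01 without Control ST replicate 2.

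**Figure D3:**
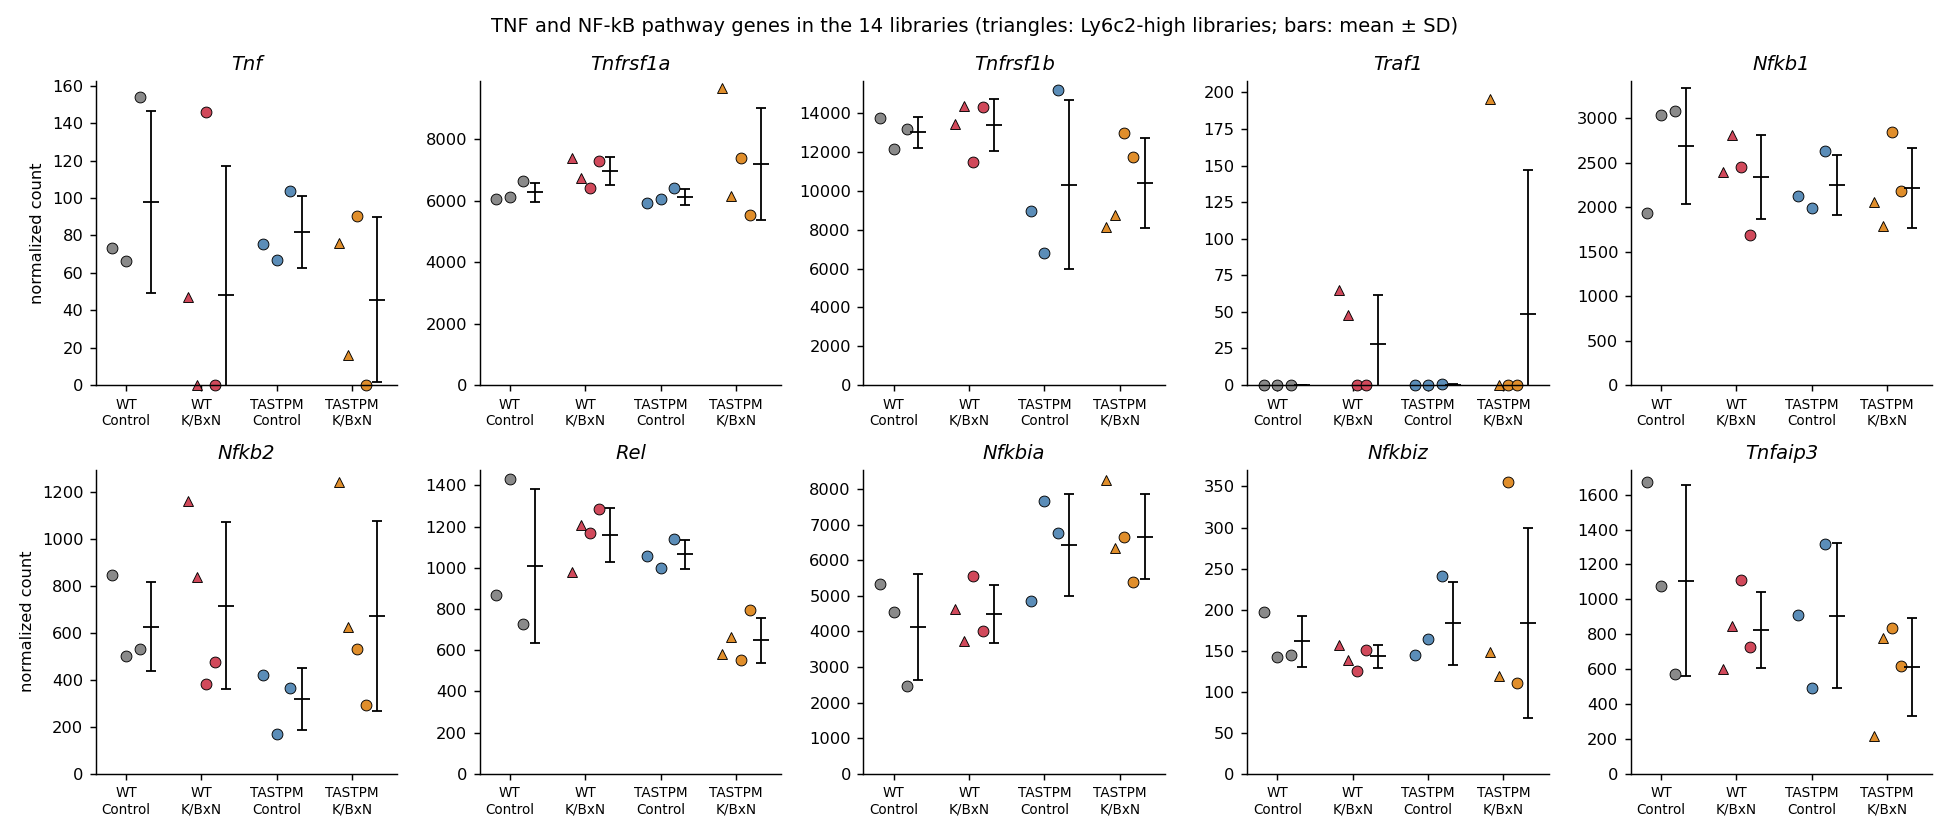
Normalized counts of the 10 genes in each library by group, linear axes from 0, with triangles for the Ly6c2-high libraries and bars for the mean ± SD (3 or 4 libraries), cut at 0 where they would be negative. Rel in TASTPM K/BxN ST (551 to 796) lies below TASTPM Control ST (998 to 1141), and the 3 sizeable values of Traf1, 47.8 to 195, are Ly6c2-high libraries.

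For serum in WT, none of the 9 tested members was called at an adjusted p below 0.05 and an absolute log2 fold change above 1, beside 0.00791% of all genes tested. None had an unadjusted p below 0.05 (limma), beside 7.13% of all genes, and none had groups that did not overlap, beside 7.38%. There were 5 differences above 0 and 4 below, with a median of 0.04 for the members and 0.06 for all genes tested. No member was called by edgeR or DESeq2 either, and the lowest adjusted p of any member under any setting and comparison was 0.335, for Nfkb2.

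For serum in TASTPM, no member was called, as no gene at all was by limma (0%) or edgeR, and DESeq2 called 16 genes with no member among them. By unadjusted p below 0.05, 1 of 9 members passed, Rel, beside 4.22% of all genes, and 1 of 9, again Rel, had groups that did not overlap, beside 5.41%. There were 4 differences above 0 and 5 below, and the median was -0.03 for the members and 0.01 for all genes. With 9 genes, a count of 1 differs from these backgrounds by less than 1 gene.

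**Figure D4:**
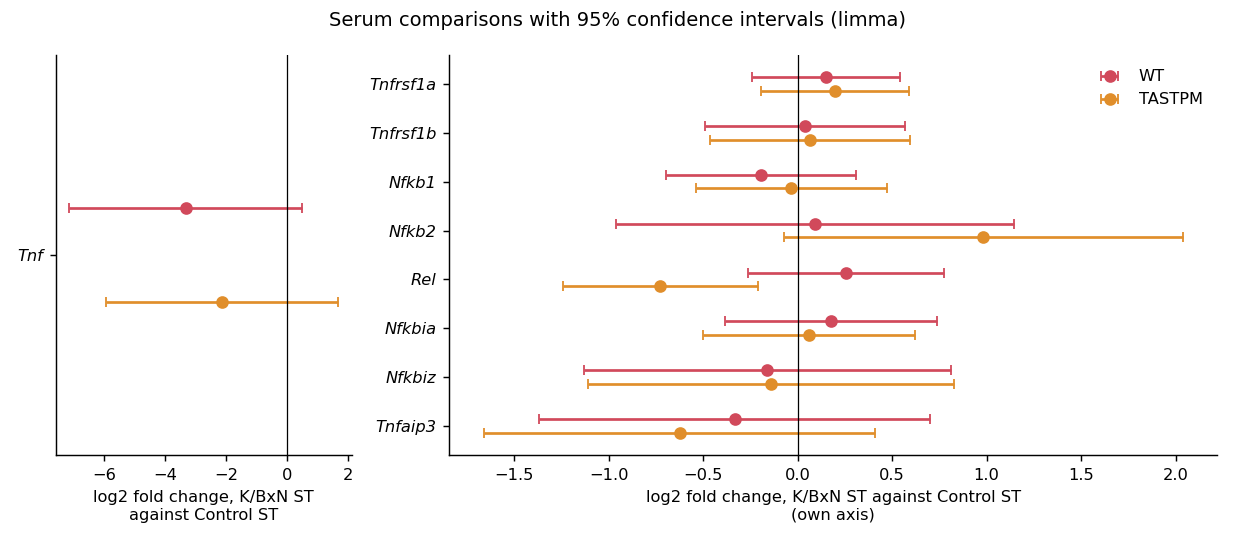
Log2 fold changes of K/BxN ST against Control ST with 95% confidence intervals from limma for the 9 tested genes, WT in red and TASTPM in orange, with Tnf on an axis of its own. Every interval includes 0 except that of Rel in TASTPM, -1.24 to -0.21, whose adjusted p is 0.964.

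Whether serum acted differently in the 2 genotypes was tested as an interaction, TASTPM difference minus WT difference. No member was called, as no gene was (0%), and 1 of 9 had an unadjusted p below 0.05, beside 3.04% of all genes. This was Rel, at -0.98 on the log2 scale (SE 0.34, unadjusted p = 0.0121, adjusted p = 0.999, limma). The other 8 ranged from -0.29 to 1.20. Without WT Control ST replicate 3, whose Rel count was the lowest of its group, the interaction was -0.78.

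Between genotypes under control serum, no member was called (0% of all genes), and 1 of 9 had an unadjusted p below 0.05, beside 5.57% of all genes. This was Nfkbia, whose log2 difference, TASTPM minus WT, was 0.69 (SE 0.28, unadjusted p = 0.0272, adjusted p = 0.819, limma). The groups overlapped, since the lowest TASTPM library, 4854, lay below the highest WT library, 5344. Without WT Control ST replicate 3, in which Nfkbia was 2472, the value was 0.36. The other 8 ranged from -1.03 to 0.17. The lowest was Nfkb2, for which the 3 TASTPM libraries, 171 to 423, all lay below the 3 WT libraries, 504 to 846, the one member of 9 without overlap, beside 9.69% of all genes. Its unadjusted p was 0.0706 by limma.

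Between genotypes under K/BxN serum, no member was called (0% of all genes). An unadjusted p below 0.05 was reached by 2 of 9 members, beside 1.91% of all genes, and 1 of 9 had groups without overlap, beside 1.83%. The log2 difference of Rel, TASTPM minus WT, was -0.84 (SE 0.22, unadjusted p = 0.00198, adjusted p = 1.00, limma), and its 4 TASTPM libraries, 551 to 796, all lay below the 4 WT libraries, 980.0 to 1283. Because this comparison shares the TASTPM K/BxN ST libraries with the serum comparison, the low Rel of both is the same 4 values. That of Nfkbia was 0.57 (SE 0.24, unadjusted p = 0.0332, adjusted p = 1.00, limma), with groups that overlapped. Without the Ly6c2-high libraries it was 0.35. The other 7 ranged from -0.56 to 1.03.

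Over both sera, Nfkbia had a median of 6662 in the 7 TASTPM libraries, from 4854 to 8255, and of 4542 in the 7 WT libraries, from 2472 to 5563. The 2 genotype comparisons share no library, and neither passed after adjustment.

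The rest of the pathway was described by 7 lists, of which 72 genes were tested. With serum in WT, 43 of the 72 differences were above 0 and 29 below, 7 (9.72%) had an unadjusted p below 0.05 and none was called, beside 54.0% above 0 and 7.13% with such a p among all genes tested. In TASTPM, 38 were above 0 and 34 below, 2 (2.78%) had an unadjusted p below 0.05 and none was called, beside 50.4% and 4.22% of all genes. The lowest adjusted p was 0.596 in WT and 0.964 in TASTPM (limma). All fold changes of these genes below are log2 differences of K/BxN ST from Control ST, with adjusted p-values from limma over all genes tested, and none passed.

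In the list of TNF relatives and shedding, 8 genes were tested and the median difference was -0.03 in WT and -0.41 in TASTPM. In WT, Rhbdf1, an inactive rhomboid protein that helps traffic the TNF sheddase, was at 2.75 (SE 0.98, adjusted p = 0.642), from 2.81, 143 and 88.8 in Control ST to 203, 141, 263 and 483 in K/BxN ST. The groups overlapped, and without WT Control ST replicate 1, at 2.81, the difference was 1.11. Tnfsf10, which encodes TRAIL, was at -1.54 (SE 0.55, adjusted p = 0.642) and was 50.5 to 103.7 in the Ly6c2-high libraries against 90.5 to 411 in the others. In TASTPM, 7 of 8 differences were below 0, and the exception was Rhbdf2 at 0.80 (SE 0.38, adjusted p = 0.964), which was 0.41 without Control ST replicate 2. Without K/BxN ST replicate 3, Ltb turned to 0.018 and Tnfsf9 to 1.07, so the count of 7 rested in part on that library.

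In the receptor-proximal complex, 15 genes were tested, with medians of 0.07 in WT and 0.21 in TASTPM and none with an unadjusted p below 0.05. Birc3, an NF-kB target that encodes the ubiquitin ligase cIAP2, was at 0.76 (SE 0.42) in WT and 0.88 (SE 0.42) in TASTPM, and its 1411 to 2277 in the Ly6c2-high libraries lay above the 485 to 1351 of the others. In WT it was 0.40 without Control ST replicate 1. Its relative Birc2 was at 2.46 (SE 1.35) in WT, which rested on Control ST replicate 1 with 1.87 and was -0.21 without it. Cflar, which encodes the caspase-8 regulator cFLIP, was at -0.50 (SE 0.28) in WT, and was 1046 to 1541 in the Ly6c2-high libraries and 1578 to 2411 in the others. Its difference was -0.32 without K/BxN ST replicate 1. Rbck1, which encodes HOIL-1 of the linear ubiquitin ligase, was at 0.60 (SE 0.31) in TASTPM, and the adaptor Traf5 at -0.61 (SE 0.33), or -0.33 without K/BxN ST replicate 1. Traf5 was 502 to 867 in the Ly6c2-high libraries, below the 904 to 1567 of the others.

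Of the ubiquitin editing brake, 7 genes were tested, with medians of 0.10 in WT and 0.09 in TASTPM. Tnip1 and Tnip2 encode ABIN proteins, which bind A20 or linear ubiquitin. Tnip2 was at 0.63 (SE 0.29, adjusted p = 0.694) in WT, where 287, 443 and 434 in Control ST lay below 564, 646, 588 and 562 in K/BxN ST, and at 0.58 (SE 0.29, adjusted p = 0.964) in TASTPM, or 0.34 without Control ST replicate 3. Tnip1 was at 1.12 (SE 0.49, adjusted p = 0.964) in TASTPM, where 131, 162 and 98.1 lay below 296, 224, 363 and 253. In WT the deubiquitinase Cyld was at 0.38 (SE 0.23), or 0.19 without Control ST replicate 3, and the ligase Itch at -0.35 (SE 0.23). Itch was 2008 to 2299.9 in the Ly6c2-high libraries and 2597 to 4021 in the others.

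Among IKK and its upstream kinases, 9 genes were tested, with medians of 0.05 in WT and -0.03 in TASTPM. Ikbkb, which encodes IKKβ, was at 1.11 (SE 0.46, adjusted p = 0.684) in WT and was 307, 1522 and 995 in Control ST and 2374, 1909, 1062 and 1614 in K/BxN ST, which overlapped, and without WT Control ST replicate 1 it was at 0.44. Map3k14, which encodes NIK of the non-canonical pathway, was at 1.11 (SE 0.52, adjusted p = 0.698) in WT, and at 0.72 without Control ST replicate 2 and 1.83 without Control ST replicate 3.

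Among the other subunits and IκB proteins, 6 genes were tested, with medians of 0.03 in WT and 0.23 in TASTPM. Nfkbid, which encodes the nuclear protein IκBNS, was at -1.30 (SE 0.44, adjusted p = 0.596) in WT, where 350, 158 and 230.2 in Control ST lay above 99.4, 97.4, 128 and 63.2 in K/BxN ST. Bcl3, which encodes a nuclear IκB protein that partners p50 and p52, was at 1.07 (SE 1.28) in WT and 2.67 (SE 1.28, adjusted p = 0.964) in TASTPM. Its 1199 to 4756 in the Ly6c2-high libraries stood above the 52.2 to 424 of the other 10. Without K/BxN ST replicate 1 of the genotype, a Ly6c2-high library, these differences were 0.40 and 1.70, and in WT the value was 1.77 without K/BxN ST replicate 3. Nfkbib, which encodes IκBβ, was at 0.52 (SE 0.36) in TASTPM, or 0.83 without K/BxN ST replicate 4.

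Of the regulators of Tnf mRNA, 9 genes were tested, with medians of 0.01 in WT and -0.19 in TASTPM and none with an unadjusted p below 0.05. In TASTPM, Zfp36, which encodes the destabilizing protein TTP, was at 0.49 (SE 0.29), its relative Zfp36l2 at -0.47 (SE 0.27) and Rc3h2, which encodes Roquin-2, at -0.62 (SE 0.35). In the Ly6c2-high libraries Rc3h2 was 304 to 487, against 521 to 922 in the others. Zfp36 was at 0.30 without K/BxN ST replicate 3 and Zfp36l2 at -0.24 without Control ST replicate 3.

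Of the classical targets, 18 genes were tested, 9 above and 9 below 0 in each genotype, with medians of -0.16 in WT and 0.03 in TASTPM. In WT, Il6 was at -1.26 (SE 0.58, adjusted p = 0.695) and Ccl5, a chemokine for T cells and monocytes, at 3.22 (SE 1.503, adjusted p = 0.698), from 0, 28.5 and 6.69 in Control ST to 120.1, 44.3, 28.7 and 63.2 in K/BxN ST. Without Control ST replicate 1, at 0, the value of Ccl5 was 1.92. The adhesion molecule Icam1 was at -0.61 (SE 0.29, adjusted p = 0.699) in WT, where 5187, 5383 and 4553 lay above 2579, 3513, 3408 and 3864. In TASTPM, Cxcl10, an interferon and NF-kB target, was at -4.30 (SE 1.98, adjusted p = 0.964), from 153, 298 and 115 in Control ST to 48.9, 125, 0 and 0 in K/BxN ST. Il1a was at -0.91 (SE 0.47) and Il6 at -1.03 (SE 0.58) there, and without K/BxN ST replicate 1, a Ly6c2-high library, they were at -0.54 and -0.62. The cytokines Il6 and Il1a were lowest in Ly6c2-high libraries, at 54.0 and 332.

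**Figure D5:**
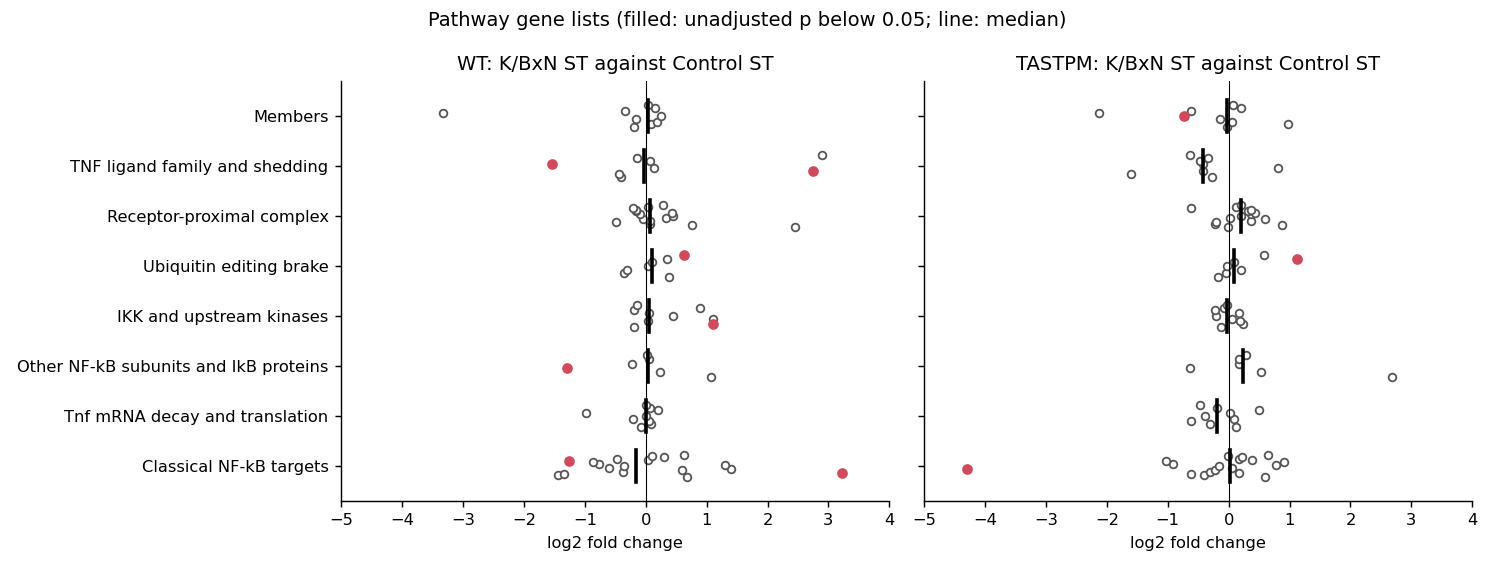
Log2 fold changes with K/BxN serum in WT (left) and TASTPM (right) for the genes tested in the members and 7 pathway lists, 1 point per gene, filled where the unadjusted p is below 0.05, with a line at each median. The medians lie between -0.41 and 0.23, and no gene passed the adjusted test.

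By likeness over the 14 libraries, the genes outside the pathway closest to Tnf on the log2 scale were Bcl2 (Pearson r = 0.88), Rps6ka5 (0.84), Rptoros (0.83), Mthfs (0.83) and Tmem116 (0.80). Among those closest to Nfkbia were Gm46620 (Pearson r = 0.84), Tnrc6a (0.81), Gm47071 (0.80) and Zfat (0.80). These are among the highest of 12636 genes compared with each, the libraries share their groups, and the values describe these libraries without a test.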

How the data were processed

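Bulk RNA-seq of 14 libraries was analysed from the values deposited by the authors. Per the labels and the study's methods, cDNA was amplified with SMART-Seq v4, aligned with HISAT2 2.1 to GRCm39 and counted with featureCounts 1.5.2. The deposited unit is a normalized signal, made by the authors with DESeq2 by dividing each read count by a factor of its library. Whole reads were recovered for 100% of values (tolerance 0.01 reads). Copies of 7 identifiers among the 14336 entries were identical and were dropped. Groups came from the header above each column. Only in TASTPM K/BxN ST do replicate numbers match the sample labels, and elsewhere they follow column order.

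Values were tested as log2(normalized count + 1), on which the change of a low gene depends on the pseudocount, with limma 3.58.1 (R 4.3.3, trended prior variance, 1 fit to the 4 groups, two-sided) for the 12645 genes that reached 10 reads in 7 or more libraries. Since the deposited unit is not counts, edgeR 4.0.16 and DESeq2 1.42.0 on recovered reads were alternatives; edgeR had been foreseen as the test for raw counts. The script was tested on simulated data. Floors of 3 reads cover counting error alone. Positions and exon lengths are from GENCODE M39, a later annotation than the authors' one.

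The 10 members and the lists were chosen with earlier results of these data known. All members are named; of each of 7 pathway lists the 3 genes with the smallest unadjusted p in each serum comparison were taken, and the 25 of these 33 with the smallest p are named. Likeness was taken as the 5 highest Pearson r to Tnf and to Nfkbia, of which 1 gene is not reported here. Other settings covered pseudocounts of 0.5 and 10, no filter, TMM factors, library totals, edgeR, DESeq2, only the groups compared, robust variances, covariates of monocyte and neutrophil markers, of immediate early genes and of Xist and Ddx3y, omission of the Ly6c2-high libraries, and omission of each library.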

Additional observations from a re-analysis of the deposited data

Results flagged for a closer look

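In groups of 4 libraries, 1 library stood apart from the other 3 by Dixon's test at 95% in 2 of 20 gene and group pairs. Chance alone flags about 1 in 20. Traf1 was 195 in TASTPM K/BxN ST replicate 1, a Ly6c2-high library, and 0 in the other 3. Nfkbiz was 356 in TASTPM K/BxN ST replicate 3, against 149 in the next library of its group, and this library was not Ly6c2-high.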

How the results depend on the processing

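No member was called under any of the settings tried, so no call was lost or gained. Of the 22 fold changes of members, 272 of 285 values under settings other than leaving out 1 library kept their direction, as did 291 of 308 with 1 library left out. The directions of Rel, and of Nfkbia between genotypes, did not change in any of them. The 13 changes of direction on the log2 scale were these, and their cause was not tested. In WT they were Nfkb2 at -0.50, -0.78 and -0.51 with the monocyte and neutrophil covariate, with the immediate early gene covariate and without the Ly6c2-high libraries, Tnfaip3 at 0.022 and 0.34 with those covariates, Tnfrsf1a at -0.016 with the immediate early gene covariate and Tnfrsf1b at -0.022 without the Ly6c2-high libraries. In TASTPM they were Nfkb1 at 0.036 with the monocyte and neutrophil covariate, Nfkb1 at 0.16, Nfkbia at -0.076 and Nfkbiz at 0.15 without the Ly6c2-high libraries, and Nfkbia at -0.039 and Tnfrsf1b at -0.026 with the Xist and Ddx3y covariate. The last 2 settings named, omission of the Ly6c2-high libraries and the Xist and Ddx3y covariate, were chosen after seeing the data. In WT K/BxN ST the omission leaves only libraries with Xist and no Ddx3y, so its WT values also carry a difference of sex.

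With 1 library left out, the direction changed for Tnfrsf1b (-0.011 to 0.11), Nfkb2 (-0.19 to 0.34), Nfkbia (-0.15 to 0.40) and Tnfaip3 (-0.74 to 0.028) in WT, and for Tnfrsf1b (-0.19 to 0.39), Nfkb1 (-0.16 to 0.086), Nfkbia (-0.13 to 0.20) and Nfkbiz (-0.52 to 0.073) in TASTPM. Others kept their direction but moved by over 1.5 times: Nfkb1 (-0.41 to -0.047), Rel (0.051 to 0.54) and Nfkbiz (-0.24 to -0.0090) in WT, and Tnfrsf1a (0.046 to 0.31), Nfkb2 (0.58 to 1.32) and Tnfaip3 (-1.01 to -0.18) in TASTPM. That of Tnf stayed below 0 (WT, -4.66 to -2.26; TASTPM, -2.89 to -0.72), and was smallest in TASTPM without K/BxN ST replicate 4. It also moved by more than 1.5 times with the test and pseudocount, with a range of -5.04 to -1.02 in WT and of -3.09 to -0.84 in TASTPM.

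Over all genes, limma called 1 in WT with serum and 0 in the other comparisons. The WT count was 0 with a pseudocount of 10, with edgeR, with only the groups compared, with either marker covariate and without the Ly6c2-high libraries. On recovered reads, DESeq2 called 127 and 16 for serum in WT and TASTPM, 12 for the interaction and 41 between genotypes under control serum. Between genotypes under control serum the limma count rose from 0 to 1 with the monocyte and neutrophil covariate, with the immediate early gene covariate, with that of Xist and Ddx3y and without the Ly6c2-high libraries. With 1 library left out, the calls ran from 0 to 17 for serum in WT and from 0 to 11 between genotypes under control serum, highest without WT Control ST replicate 3 in both, from 0 to 1 for serum in TASTPM and from 0 to 3 for the interaction. No paired analysis was possible because the labels give no replicate number that the groups share. Groups held 3 or 4 libraries, and genes with few reads such as Tnf and Traf1 were measured least firmly.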
